A study of Rattus norvegicus with 18 samples.

Results

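The comparison described is that of diabetic with lean kidney cortex in a rat RNA-seq series of 3 groups. It covers 12 of the 18 libraries and 13988 of the 18420 genes in the deposited table, those with a normalised read count of at least 10 in at least 6 of the 18 libraries. The 6 disease libraries came from Zucker diabetic fatty (ZDF) rats with the fa/fa genotype, which were diabetic. The 6 healthy control libraries came from lean ZDF rats of the fa/+ genotype, which were not diabetic and still carried 1 fa allele. The third group, 6 fa/fa rats with Roux-en-Y gastric bypass (RYGB), a bariatric operation, entered the fit only to estimate the spread. The labels give no age or sex for the groups used here, and whether every library stems from its own animal is not spelled out in them.

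The fa allele damages the leptin receptor, which signals satiety, and fa/fa rats become obese, resistant to insulin and diabetic. The kidney filters blood plasma in glomeruli, whose podocytes hold back protein, and the proximal tubule then takes back glucose, amino acids and filtered protein and secretes organic ions and drugs. Its late, straight segment carries its own set of transporters and enzymes and is the part most easily injured. The thick ascending limb, further along, dilutes the urine and makes uromodulin. Injured tubule cells lose the transcripts of their mature state and switch on surface and secreted proteins that are low in the healthy kidney.

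Values are normalised read counts (reads divided by 1 size factor per library). Each gene is given by its lowest, median and highest of the 6 libraries of a group, then by the log2 fold change of disease minus healthy control ± SE and the adjusted p of limma over all 13988 genes. The threshold for a call was an adjusted p of 0.05, and "rose" and "fell" are used of called genes only. The depth in reads counted to genes was 8116638 to 34169198 in healthy control and 8157977 to 37142922 in disease. Marker sums of tissues next to the cortex overlapped between the groups: adrenal cortex 33.6 to 47.1 in healthy control and 31.9 to 52.3 in disease, and renal medulla and papilla 1535 to 2901 and 1972 to 3713. The medians were 42.1 and 39.9 for adrenal cortex, and 1972 and 2673 for renal medulla and papilla. Whether the share of medulla in the samples differed was not tested. All 19 podocyte and all 23 general proximal tubule markers in the table were detected in both groups. Lepr, the gene of the fa allele, had 95.7, 198 and 250.1 in healthy control and 81.5, 108 and 202 in disease (adjusted p = 0.318). Since the allele changes the protein, this level does not tell which allele a library carried.

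Libraries did not all lie with their group. Each was placed on a line from the mean of the other healthy control libraries (0) to the mean of the other disease libraries (1), over the genes called without it. The library labelled healthy control replicate 4 had a median position of 0.48, against -0.22 to 0.175 for the other 5. Its median was 0.628 in genes that were higher in disease and 0.326 in those that were lower. This library also had the fewest reads in genes of its group (8116638). Disease replicate 5 lay at 0.519 and disease replicate 6 at 0.709, against 0.782 to 1.08 for the other 4. The pair differed in kind. Disease replicate 5 lay about midway between the groups in genes that were lower in disease (0.437, against 0.914 in the higher ones). Disease replicate 6 did so in genes that were higher (0.405, against 0.795 in the lower ones). Disease replicate 1, with a median of 0.863, was split in the same way as replicate 6 (0.52 in the higher genes, 1.076 in the lower). The part of depth in these positions was not tested.

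**Figure D1:**
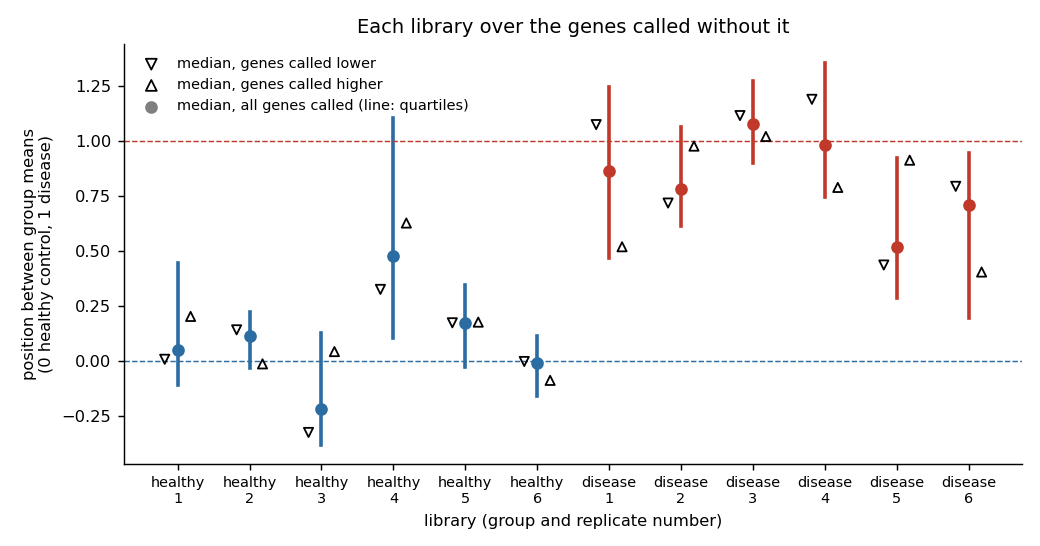
Position of each library (x axis, group and replicate number) between the group means of the other libraries (y axis, no unit, 0 for healthy control and 1 for disease), over the genes called when that library was left out. Dots are medians, lines run between quartiles, and triangles give the medians for genes called lower and higher; healthy control replicate 4 lies at 0.48 and disease replicate 5 at 0.519.

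Of the 13988 genes 225 were called (1.61%), 81 higher (0.579%) and 144 lower (1.03%) in the diabetic cortex. Falls were also the larger changes: 111 genes fell and 46 rose by at least 1 on the log2 scale, and 51 fell and 12 rose by at least 2. The median over all tested genes was 0.00 and 50.4% of them were above 0. At a share of 1.61%, gene lists of the sizes used below would mostly hold 0 calls or 1. Such a count does not set a list apart from all genes. In 127 of the called genes, 87 lower and 40 higher, the 6 disease libraries did not overlap the 6 healthy control libraries, where 174 of all tested genes (1.24%) were separated in this way.

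The number of calls rested on which libraries entered. Without healthy control replicate 4 there were 312 calls, 2.23% of the genes tested (123 higher, 0.879%, and 189 lower, 1.35%), which held 204 of the 225. Without disease replicate 5 there were 218 and without disease replicate 6 there were 302. The count fell by more than 1.5 times without disease replicate 3 (135) or 4 (137) or healthy control replicate 2 (145), 3 (126) or 6 (132). Across 27 alternative settings, 12 of which left out 1 library, 77 genes (54 lower, 23 higher) were called every time. A gene named below passed in every alternative that tested it, unless its paragraph says otherwise.

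**Figure D2:**
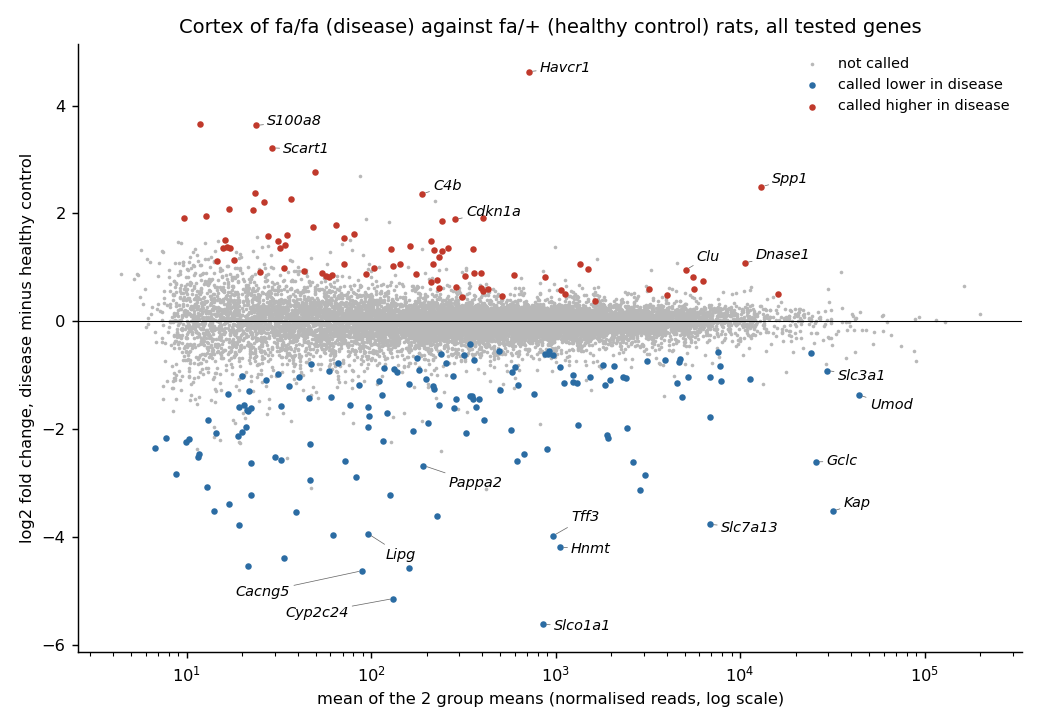
Log2 fold change of disease minus healthy control (y axis) against the mean of both group means in normalised reads (x axis, log scale), 1 point per tested gene; coloured points are the 144 genes called lower and the 81 called higher. Havcr1 (4.63) and Slco1a1 (-5.62) mark the extremes among the labelled genes.

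Among the 61 gene lists, which were chosen with earlier results of these data known, the late proximal tubule had the most members called. Of its 17 tested markers 9 fell and 0 rose, with a median log2 fold change of -0.88 against 0.00 over all genes. The count was 7 without healthy control replicate 4 and 6 to 9 when any 1 library was left out. The summed level of the 17 markers was 201653 to 304515 in healthy control and 114045 to 180956 in disease, with no overlap. Kap, described below, made up a large part of the difference between these sums. A sum without Kap was not taken, so the separation cannot be credited to the markers as a set. In bulk tissue, fewer cells of a type and less RNA per cell cannot be told apart.

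Slco1a1, a transporter of steroid conjugates and other organic anions, had 765, 1662 and 2591 in healthy control and 4.22, 48.6 and 139 in disease. All 6 disease libraries lay far below the lowest healthy control, and the mean was 31.8-fold lower (log2 fold change -5.62 ± 0.70, adjusted p = 0.000215). Kap, an androgen-regulated protein of the straight segment, had 16421, 64987 and 84694 in healthy control and 2094, 4264 and 13672 in disease (-3.52 ± 0.52, adjusted p = 0.000911). Its lowest healthy control was replicate 4 and its highest disease library replicate 5, which stood close together, and without healthy control replicate 4 the fold change was -3.85.

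Slc7a13, the carrier of aspartate, glutamate and cystine, had 7371, 10534 and 22108 in healthy control and 248, 861 and 3512 in disease (-3.76 ± 0.64, adjusted p = 0.00335). Slco1a6, another organic anion transporter, went from 3275, 4743 and 8359 to 143, 567 and 2340.1 (-3.13 ± 0.60, adjusted p = 0.00744). Slc22a22, a prostaglandin-transporting member of the organic ion carriers, went from 826, 983 and 1609.7 to 59.7, 197 and 698 (-2.45 ± 0.48, adjusted p = 0.00936). None of these 3 overlapped between the groups, and in each the top disease value was that of replicate 5. Cyp2c24, a cytochrome P450, had 151, 240.0 and 379.7 in healthy control and 0, 6.01 and 38.5 in disease (-5.14 ± 0.72, adjusted p = 0.000565). Over the 6 disease libraries the log2 levels of the 143 other genes called lower had a median Pearson r of 0.636 with Slc7a13; it was above 0.9 in 28 genes and below 0 in 27. This is a description of 6 libraries, which the genes share.

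The other 3 late markers changed less or less firmly. Acsm3, a mitochondrial enzyme that activates medium-chain fatty acids, had 26614, 27839 and 34076 in healthy control and 14848, 19748 and 23819.8 in disease, with no overlap (-0.59 ± 0.13, adjusted p = 0.0196). It was not called without disease replicate 3 (adjusted p = 0.0622) or 4 (0.0508), with the 12 libraries alone (0.0562; 0.0708 with the replicate block as well) or after quantile normalization (0.142). Slc22a7, an organic anion transporter, and Slco4c1, a carrier of digoxin and thyroid hormone, had fold changes of -2.51 ± 0.61 (adjusted p = 0.0394) and -2.23 ± 0.55 (0.0415). Each lost its call in 9 of the 12 fits that left out 1 library. For Slc22a7 these were disease replicates 1 to 4 and healthy control replicates 1 to 4 and 6 (adjusted p 0.0556 to 0.112), and for Slco4c1 disease replicates 1, 3 and 4 and all 6 healthy control replicates (0.05 to 0.123). Under the replicate block the adjusted p was 0.0839 and 0.092, and 0.0539 and 0.0501 with the block and the 12 libraries alone. Slc22a7 was also not called in edgeR (0.0691), and Slco4c1 in edgeR (0.116), DESeq2 (0.0706) or at a minimum value of 50 (0.053).

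**Figure D3:**
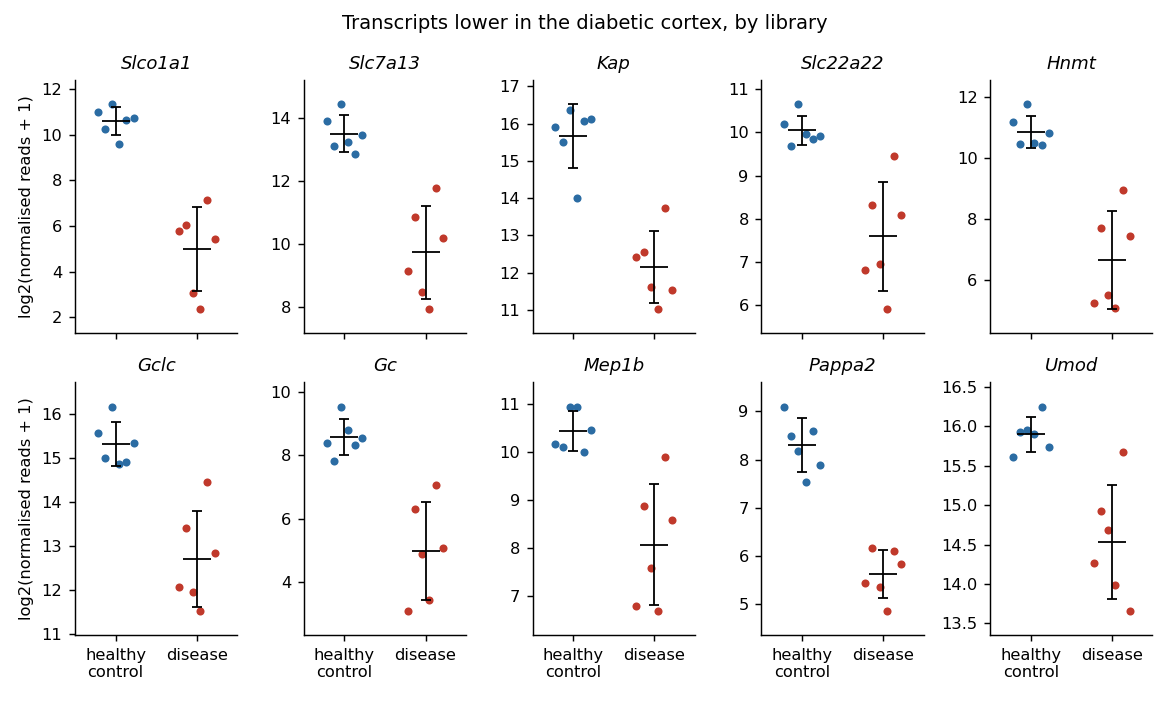
Level of 10 transcripts that fell, as log2(normalised reads + 1) on the y axis of each panel, in the 6 healthy control and 6 disease libraries (points, in order of replicate number from left to right; bars are mean ± SD, n = 6). Apart from Umod, where disease replicate 5 (52350.1) lies among the healthy controls, the groups do not overlap in any panel.

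The general proximal tubule list showed fewer calls: 2 of 23 fell and 0 rose, with a median of -0.07. Its summed level overlapped between the groups (384101 to 630648 in healthy control and 292836 to 603945 in disease). Slc3a1, the heavy subunit of the cystine and dibasic amino acid transporter, had 29100.0, 35735 and 56173 in healthy control and 14139.6, 20208 and 26363 in disease (-0.91 ± 0.20, adjusted p = 0.0209). Ggt1, the brush-border enzyme that breaks down glutathione, had 6309, 8259 and 12670.1 against 3081, 4323 and 7048, with overlapping ranges (-1.03 ± 0.23, adjusted p = 0.0237). Slc3a1 was not called without disease replicate 2 (0.0558) or healthy control replicate 3 (0.0665) or 6 (0.059). Ggt1 was not called without disease replicate 1 (0.0577) or 2 (0.0523) or healthy control replicate 3 (0.0754) or 6 (0.0534), so the list count was 1 without disease replicate 1 and 0 without the other 3 named libraries.

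Of 25 organic ion transporters 6 fell and 0 rose (median -0.30; 4 fell without healthy control replicate 4), and 5 of the 6 were the late proximal tubule markers Slco1a1, Slco1a6, Slco4c1, Slc22a7 and Slc22a22. The other was Slc22a2. Slc22a2, the basolateral carrier that takes up organic cations such as creatinine and metformin, had 5497, 6320.0 and 10672 in healthy control and 2143, 2409.6 and 3940.2 in disease, with no overlap (-1.40 ± 0.23, adjusted p = 0.00255). Of 26 amino acid and peptide transporters 4 fell and 0 rose (median -0.25): Slc3a1, Slc7a13, Slc7a12 and Slc15a2. Slc15a2, which recovers di- and tripeptides from the filtrate, went from 1849, 2421 and 3393 to 805, 1093 and 1580.1 (-1.19 ± 0.23, adjusted p = 0.00792), and these ranges did not overlap. Slc7a12 changed by -1.07 ± 0.23 (adjusted p = 0.0205), and was not called without disease replicate 2 (0.0526) or with the 12 libraries alone (0.058). Without disease replicate 2 the list count was 2.

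A pair of brush-border hydrolases, chosen after their values were seen, fell as well. Mep1b, the beta subunit of the protease meprin, had 1027, 1283 and 1975 in healthy control and 102, 287 and 948 in disease (-2.37 ± 0.48, adjusted p = 0.0118), with no overlap. Mgam, which splits starch sugars, had 2379, 4040.2 and 4815 against 2004, 2351 and 2576 (-0.74 ± 0.14, adjusted p = 0.00693). Only healthy control replicate 4, its lowest healthy control, reached into the disease range, and without it the fold change was -0.88. Of 11 genes for the endocytosis of filtered protein 0 were called, with a median of -0.07.

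Enzymes that modify small molecules fell in part. Hnmt, which methylates and so inactivates histamine, had 1366, 1611 and 3439.8 in healthy control and 33.0, 109.8 and 489 in disease, an 11.9-fold lower mean (-4.19 ± 0.66, adjusted p = 0.00165). Ugt2b35, a glucuronosyltransferase, fell by 1.09 ± 0.15 on the log2 scale (adjusted p = 0.000558). In both the groups were apart. In the list of 26 conjugating and methylating enzymes 4 fell, Acsm3 among them, and 2 rose, with a median of -0.21. The 2 that rose were the sulfotransferases Sult1a1 (0.97 ± 0.23, adjusted p = 0.0327) and Sult1c3 (1.48 ± 0.34, 0.0267). Each lost its call in fits that left out 1 library (adjusted p 0.0591 to 0.0982 and 0.0508 to 0.0794), and under the replicate block Sult1c3 had 0.07 (0.0501 with the 12 libraries alone as well). Sult1a1 was not called in edgeR (0.0647) or with the 12 libraries alone (0.0775). The count of rises was 0 without disease replicate 4 or healthy control replicate 2, 3 or 6, and 1 without disease replicate 2, 3 or 5 or healthy control replicate 1 or 5. Of 21 cytochromes P450 3 fell and 0 rose (median -0.20). Dhrs7l1, a short-chain dehydrogenase, went from 3166, 5489 and 6804 to 259, 721 and 2261 without overlap (-2.85 ± 0.51, adjusted p = 0.00437).

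Both subunits of glutamate-cysteine ligase, which makes the first intermediate of glutathione, fell. The catalytic subunit Gclc had 29669.9, 37038 and 73499.8 in healthy control and 2927, 5800.2 and 22418 in disease, with no overlap (-2.60 ± 0.49, adjusted p = 0.00685). The modifier subunit Gclm had 8153, 10157 and 14620.4 against 3109, 4590.0 and 8440.1 (-1.11 ± 0.28, adjusted p = 0.0449). In both, the top disease value was that of replicate 5, which alone entered the healthy control range of Gclm. The call of Gclm was lost in 9 of 12 fits without 1 library (adjusted p 0.0592 to 0.134), those without disease replicates 1 to 4 or healthy control replicates 1 to 3, 5 or 6, where the list count was 1. It was also lost under the replicate block (0.11), in edgeR (0.0668), at a minimum value of 50 (0.0566) and after quantile normalization (0.0827). They were the 2 that fell of 24 tested glutathione and NRF2 genes, whose median was 0.00, and 0 rose.

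Other metabolic enzymes were lower. Oat, which turns ornithine into glutamate, had 10803, 15102 and 20390.4 in healthy control and 5787, 6916 and 10424 in disease, with no overlap (-1.07 ± 0.22, adjusted p = 0.0129). Me1, the cytosolic malic enzyme that supplies NADPH, had 1683, 2718 and 3474 against 1136, 1489 and 1771 (-0.84 ± 0.14, adjusted p = 0.00376), where healthy control replicate 4 was the lowest healthy control and overlapped the disease range. Rgn, a calcium-binding gluconolactonase, and Cndp1, which splits carnosine, fell 4.52-fold and 3.55-fold in the mean (-2.11 ± 0.30 and -1.91 ± 0.34, adjusted p = 0.000781 and 0.0044), and both were chosen after their values were seen. Acox2, a peroxisomal oxidase of branched fatty acids and bile acid precursors, fell by 1.19 ± 0.26 (adjusted p = 0.0217). Its call was lost without disease replicate 1 (0.0533) or 4 (0.0559) or healthy control replicate 3 (0.0732) or 6 (0.0535) and under the replicate block (0.0605). Pgm3, of the hexosamine pathway, fell by 0.63 ± 0.14 (0.0196), and lost its call without disease replicate 3 (0.0603) or 4 (0.0574) or healthy control replicate 3 (0.0665) or 6 (0.0632) and under the replicate block (0.0606).

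Lists of central metabolism held no call: 0 of 19 genes of glucose transport and gluconeogenesis, 0 of 17 of glycolysis, 0 of 23 of oxidative phosphorylation and 0 of 25 of amino acid breakdown and ammonia, with medians of -0.19, 0.14, 0.11 and 0.02. In the same order 7, 12, 22 and 16 genes were above 0, where 50.4% of all tested genes were. With 1.61% of all tested genes called, 0 calls in lists of this size is near the share over all genes.

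Several transcripts of growth and repair factors fell. Tff3, a trefoil peptide that protects and repairs epithelia, had 1032, 1328 and 3627 in healthy control and 29.9, 85.0 and 667 in disease (-3.97 ± 0.77, adjusted p = 0.0078). Areg, the growth factor amphiregulin, had 24.1, 72.4 and 155 against 7.47, 12.7 and 22.9 (-2.28 ± 0.42, adjusted p = 0.00495). Neither overlapped. With Igf1 they were the 3 that fell of 13 repair and trefoil factors, and 0 rose. Igf1, insulin-like growth factor, had 110.4 in healthy control replicate 4 and 394 to 529 in the other 5, against 92.1, 142 and 224 in disease (-1.44 ± 0.33, adjusted p = 0.0299). Without healthy control replicate 4 it was -1.79 (adjusted p = 0.000291) and the groups were apart. Its call was lost without disease replicate 2, 3, 4 or 5 or any healthy control replicate other than 4 (adjusted p 0.0511 to 0.0861) and with the 12 libraries alone (0.0598).

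Pappa2, a protease that frees insulin-like growth factors from their binding proteins, had 184, 324 and 547 in healthy control and 28.1, 49.2 and 70.6 in disease (-2.67 ± 0.31, adjusted p = 6.96e-05). Gc, the vitamin D binding protein, had 225, 353 and 741 against 7.47, 30.2 and 131 (-3.60 ± 0.65, adjusted p = 0.00446). Both were without overlap. Gc was the only called gene of the 22 on vitamin D, calcium and phosphate. Of the tissue kallikrein family, Klk1c2 fell from 50.9, 82.6 and 115 to 3.39, 9.55 and 16.96 (-2.95 ± 0.32, adjusted p = 5.32e-05). Klk1c10, at low counts, went from 5.04, 15.9 and 28.5 to 0, 1.47 and 2.94 (-2.84 ± 0.39, adjusted p = 0.000559). Reads can fit several of these close copies, so their single levels are uncertain. The kallikrein-kinin list had a median of 0.22, and besides these 2 falls of 6 tested genes Kng1, a kininogen, rose (1.05 ± 0.26, adjusted p = 0.0476). Kng1 lost its call in 18 of 27 alternatives, among them the replicate block (0.0871) and each fit without 1 library (0.0631 to 0.134) other than disease replicate 1 or healthy control replicate 4. Of 13 tested renin-angiotensin genes 1 fell and 0 rose (median -0.37), and 3 fell without disease replicate 5. Plau, the urokinase plasminogen activator, had 7109, 9706 and 13949 against 4206, 5419 and 6755 (-0.83 ± 0.18, adjusted p = 0.0163), and lost its call without healthy control replicate 3 (0.052).

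The remaining large falls were in genes of varied function. Lipg, an endothelial lipase, had 131, 177 and 231 in healthy control and 4.92, 11.5 and 23.1 in disease (-3.93 ± 0.35, adjusted p = 5.58e-06). Anxa13, an annexin of epithelial membranes, had 56.5, 124 and 155 against 3.51, 6.13 and 12.3 (-3.97 ± 0.44, adjusted p = 5.32e-05). In both, the highest disease library stayed below the lowest healthy control. Cacng5, a subunit of the calcium channel gamma family, fell without overlap (-4.62 ± 0.82, adjusted p = 0.00437). So did Iqch (-3.21 ± 0.52, adjusted p = 0.00208) and Topaz1, known from germ cells (-1.27 ± 0.16, adjusted p = 0.00017). Prf1, the pore protein of killer lymphocytes, had 35.3, 46.7 and 63.5 against 8.43, 14.9 and 29.9 (-1.57 ± 0.29, adjusted p = 0.00514). It and Gzma, a killer cell protease (-2.08 ± 0.47, adjusted p = 0.0261), were the 2 that fell of 10 tested lymphocyte genes, and 0 rose. The list median was 0.18, with 6 of 10 above 0. Cd3e, a chain of the T cell receptor complex, had 4.91, 11.9 and 16.8 against 9.97, 29.8 and 43.1 and did not pass (1.19 ± 0.32, adjusted p = 0.0684), but was called higher in 6 of 27 alternatives, among them edgeR (0.0201), DESeq2 (0.00243) and the fit without disease replicate 1 (0.0115). Gzma was not called without disease replicate 4 (0.0662) or healthy control replicate 1 (0.0669), 3 (0.0619) or 6 (0.0655) or with the 12 libraries alone (0.0717). The summed level of the 17 lymphocyte markers overlapped (763 to 1318 in healthy control and 987 to 1492 in disease).

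The thick ascending limb list had the second lowest median, -0.77, with 2 of 10 tested genes lower and 0 higher. Umod, which encodes uromodulin, had 50150.3, 61796 and 77986 in healthy control and 12919.8, 23062 and 52350.1 in disease (-1.36 ± 0.28, adjusted p = 0.0129). Disease replicate 5 was the highest disease library and the only one inside the healthy control range. The call was lost after quantile normalization (0.161). Cldn10, the claudin that lets sodium pass between cells of this segment, had 1953, 2189 and 2753 against 966, 1365 and 1575, with no overlap (-0.80 ± 0.12, adjusted p = 0.000911). The summed level of 11 markers was 90818.5 to 122959 in healthy control, 35017 to 73500.6 in 5 disease libraries and 105234 in disease replicate 5, without which 5 of the 10 tested genes were called lower. Of 8 distal convoluted tubule, 12 principal cell and 11 intercalated cell genes 0 were called, with medians of 0.21, 0.23 and 0.10. In the same order 8, 9 and 9 genes were above 0, where 50.4% of all tested genes were.

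The tubular injury list held the most rises. Of 22 tested genes 7 rose, 1 fell and 14 did not pass, with a median of 0.36 and 10 of 22 below 0, and 4 rose without disease replicate 4 or healthy control replicate 2 or 3. Havcr1, the kidney injury molecule of damaged proximal tubule cells, had 7.56, 32.5 and 269.8 in healthy control and 401, 990.2 and 3065 in disease (4.63 ± 0.68, adjusted p = 0.000911). The highest healthy control was replicate 4, and the groups did not overlap. Spp1, which encodes osteopontin, had 2812, 3721 and 5186 against 9794, 23377 and 30777 (2.50 ± 0.23, adjusted p = 5.58e-06), also apart. Clu, the secreted chaperone clusterin, had 2965, 3356 and 4317 against 4995, 6975 and 7789.5 (0.96 ± 0.13, adjusted p = 0.00047). Cdkn1a, the p53 target that halts the cell cycle, had 78.2, 129 and 162 against 370.3, 441 and 583 (1.89 ± 0.28, adjusted p = 0.000976). Every disease library was above every healthy control in these 4 genes.

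The other 3 rises of that list were smaller or less firm. Fgb, the fibrinogen beta chain, had 76.5, 117 and 272 in healthy control and 206, 283 and 604 in disease (1.31 ± 0.29, adjusted p = 0.0238), and only healthy control replicate 4 reached the disease range. Without it the fold change was 1.53 (0.00363), and the call was lost without disease replicate 4 (0.0646) or healthy control replicate 2 (0.0613), 3 (0.0754) or 5 (0.0595) or with the 12 libraries alone (0.0549). The filament proteins Krt8, of simple epithelia, and Vim, of mesenchymal and injured cells, rose by 0.82 ± 0.20 (adjusted p = 0.0477) and 0.60 ± 0.14 (0.0321). Krt8 lost its call in 15 of 27 alternatives, 9 of them without 1 library (disease replicates 1, 3, 4 and 6 and healthy control replicates other than 4, adjusted p 0.0707 to 0.13). Without healthy control replicate 4 its fold change was 1.00 (0.00254). Vim lost its call in 10 of 27 alternatives, 7 of them without 1 library (disease replicates 2 to 5 and healthy control replicates 2, 3 and 6, adjusted p 0.0563 to 0.0982).

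The fall in that list was Krt19, a keratin of simple epithelia, with 106.6, 138 and 219.5 in healthy control and 47.3, 81.5 and 115 in disease (-0.87 ± 0.21, adjusted p = 0.0415), and these ranges overlapped. It lost its call in 11 of 27 alternatives, 7 of them without 1 library (disease replicates 1 to 4 and healthy control replicates 1, 5 and 6, adjusted p 0.068 to 0.124). Without healthy control replicate 4, 2 genes of the list fell.

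**Figure D4:**
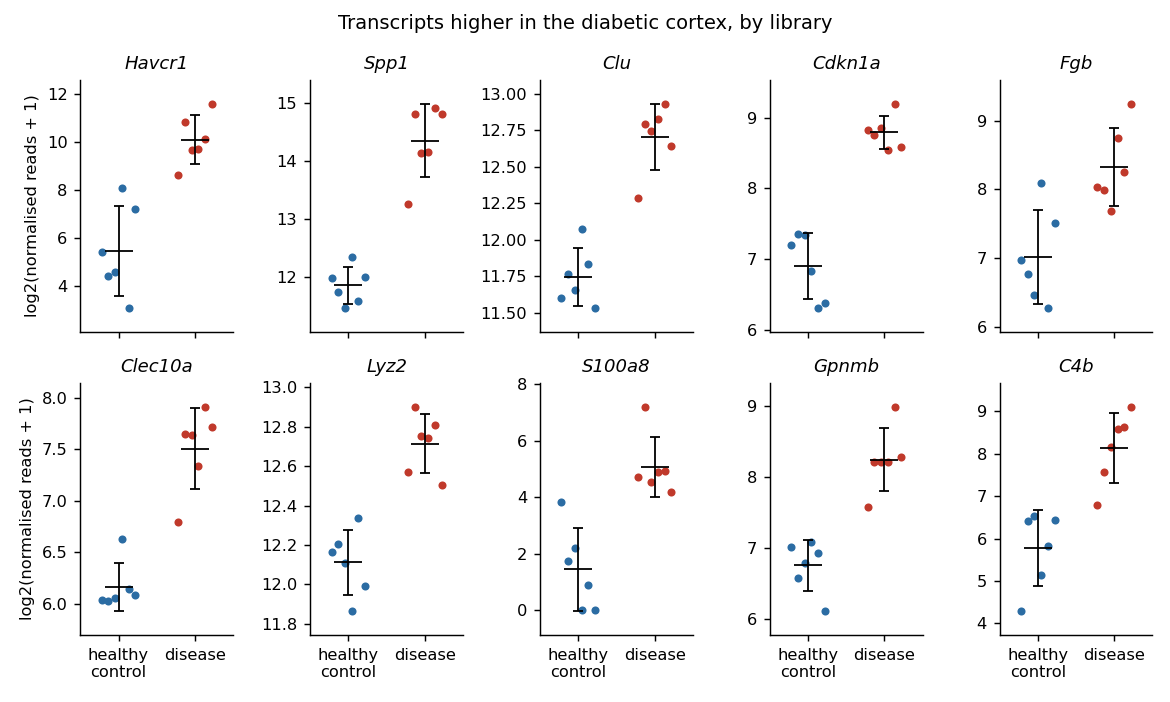
Level of 10 transcripts that rose, as log2(normalised reads + 1) on the y axis of each panel, in the 6 healthy control and 6 disease libraries (points, in order of replicate number from left to right; bars are mean ± SD, n = 6). In Fgb healthy control replicate 4 (272) lies among the disease libraries, and in the other 9 panels the groups do not overlap.

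Of 18 tested macrophage markers 3 rose and 0 fell, with a median of 0.29, and the summed level of 19 markers was 6822 to 9647 in healthy control and 10420 to 12965 in disease, without overlap. Lyz2 alone made up 49 to 54.7% of that sum in healthy control and 55.8 to 58.9% in disease, and without it the other 18 markers summed to 3093 to 4566 and 4607 to 5412, only just apart; this sum was chosen after the data were seen. Clec10a, a lectin of macrophages and dendritic cells, had 64.2, 66.1 and 98.1 against 109.6, 199 and 239 (1.34 ± 0.22, adjusted p = 0.0024). Lyz2, lysozyme, had 3729, 4503 and 5171 against 5809.9, 6884 and 7637 (0.60 ± 0.11, adjusted p = 0.0044). Trem2, a lipid receptor of macrophages, had 7.36, 7.71 and 10.96 against 7.47, 22.4 and 54.0 (1.35 ± 0.33, adjusted p = 0.0426) with overlap. Its call was lost in 10 of 12 fits without 1 library (adjusted p 0.056 to 0.111), all but those without disease replicate 1 or 6, and under the replicate block (0.0767; 0.132 with the 12 libraries alone as well) and with the 12 libraries alone (0.112). Adgre1, the macrophage marker F4/80, did not pass and was below 0 (181.5, 416 and 530 against 234, 279 and 365, -0.33 ± 0.21, adjusted p = 0.617). Without disease replicate 6 there were 5 rises in the list and without healthy control replicate 4 there were 2.

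S100a8 and S100a9, which form the calcium-binding alarm protein calprotectin of neutrophils and monocytes, were low but apart. S100a8 had 0, 1.57 and 13.1 in healthy control and 16.97, 26.9 and 144 in disease (3.63 ± 0.66, adjusted p = 0.00446). S100a9 had 2.45, 8.73 and 32.9 against 39.0, 66.7 and 213 (2.77 ± 0.51, adjusted p = 0.00533). Disease replicate 2 was far above the other disease libraries in both. They were 2 of 4 tested neutrophil and mast cell genes, and the summed level of the 8 markers in the table overlapped between the groups (666 to 1619 and 674 to 1790.2), with a median of 1028 in healthy control and 887 in disease. Scart1, a scavenger receptor of gamma delta T cells, had 0.764, 4.87 and 9.81 against 17.6, 61.0 and 76.4 (3.21 ± 0.43, adjusted p = 0.000468), and Scara5, a ferritin receptor chosen after its values were seen, rose by 1.79 ± 0.29 (0.00208). No healthy control library of Scart1 reached the filter value of 10, and in S100a8 only healthy control replicate 1 did (13.1). Within the 12 libraries Scart1 thus met the filter through disease alone, and it was also called with no filter.

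Lysosomal and complement genes rose in small number. Gpnmb, a lysosomal glycoprotein of phagocytes, had 68.1, 115 and 135 in healthy control and 189, 296 and 504 in disease (1.49 ± 0.22, adjusted p = 0.000913). Ctsz, a cathepsin, rose by 0.57 ± 0.12 (0.0118), and in all 3 of 27 lysosome and autophagy genes rose and 0 fell (median 0.07). C4b, a component of the classical complement pathway, had 18.6, 69.8 and 91.0 against 109.6, 333 and 545 (2.36 ± 0.39, adjusted p = 0.00235) and was the only call among 17 complement genes (median 0.25), where 2 were called higher without disease replicate 6. Both genes were without overlap. C4b has a close copy that reads can also fit, so its level is uncertain. Of 22 interferon response and 16 antigen presentation genes 0 were called, with medians of -0.21 and 0.10.

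In the TGF-beta and BMP list 3 of 25 genes rose and 0 fell (median -0.07), and 1 rose without disease replicate 2 or healthy control replicate 2. Ltbp2, a matrix protein related to the binding proteins of latent TGF-beta, had 63.5, 82.1 and 101 in healthy control and 102, 217 and 398 in disease (1.39 ± 0.25, adjusted p = 0.00445). The groups were only just apart. Adamts8, a secreted metalloprotease, had 99.8, 132 and 231 against 234, 327 and 382 (1.19 ± 0.21, adjusted p = 0.0044), again with a narrow gap. Of 24 matrix genes 0 were called (1.61% over all tested genes), with a median of 0.06.

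Podocyte genes, the subject of the series' title, did not pass the test: 0 of 19 were called, 1 had an unadjusted p below 0.05, and the median was -0.11 with 14 of 19 below 0. Since 1.61% of all tested genes were called, 0 of 19 is near the share over all genes and does not show that podocytes were spared. Nphs1, nephrin of the slit diaphragm, had 2508, 3114 and 5846 in healthy control and 2353, 3255 and 3722 in disease (-0.11 ± 0.17, adjusted p = 0.867). Its sign turned with library weights (0.108) and without healthy control replicate 1 (0.054). Podxl, which coats the podocyte surface, had 6891, 8639 and 13739.9 against 5465, 7542 and 10019 (-0.30 ± 0.17, adjusted p = 0.535). The summed level of the 19 markers was 40783.2 to 65667.1 and 38011.1 to 55783.8. These ranges overlapped. Des, the muscle and mesangial filament desmin, which injured podocytes also make, had 353, 399 and 540.1 against 604, 750.4 and 926 (0.86 ± 0.13, adjusted p = 0.00121) without overlap, and was the only call among 12 mesangial, mural and fibroblast genes (median -0.08).

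Further rises came from genes outside these groups. Glp1r, the receptor of the gut hormone GLP-1, had 24.5, 35.3 and 47.4 in healthy control and 56.8, 103 and 159 in disease (1.55 ± 0.24, adjusted p = 0.00151). Glrx, the thiol enzyme glutaredoxin, had 243, 269 and 324 against 398, 511 and 649 (0.89 ± 0.13, adjusted p = 0.000911). Neither overlapped. Car3, a carbonic anhydrase of fat and muscle, had 101, 139 and 217 against 264, 340.1 and 520.3 (1.37 ± 0.27, adjusted p = 0.00936), while the summed level of the 10 adipocyte markers overlapped (3223 to 5169.7 and 2510.2 to 4111). Dnase1, the main secreted nuclease, had 4669, 6761 and 7676 against 7382, 16264 and 21147 (1.09 ± 0.24, adjusted p = 0.0214). It was not called without disease replicate 2 (0.0555), 3 (0.063) or 4 (0.0551) or healthy control replicate 3 (0.0568) or 6 (0.0671).

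Nags, which makes the activator of the urea cycle, was chosen after its values were seen, and rose by 2.27 ± 0.40 (adjusted p = 0.00418). Cks2, a cofactor of cyclin-dependent kinases, rose by 0.89 ± 0.22 (adjusted p = 0.0414), but its call was lost in 15 of 27 alternatives, among them each fit without a healthy control library or without disease replicate 1, 2, 3 or 4 (adjusted p 0.0517 to 0.107) and the replicate block (0.0974). Of 22 cell cycle genes 0 were called although 21 were above 0. Their median was 0.30 and 0.10 without healthy control replicate 4. Of 24 genes of the unfolded protein response 0 were called and 22 were below 0 (median -0.28).

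**Figure D5:**
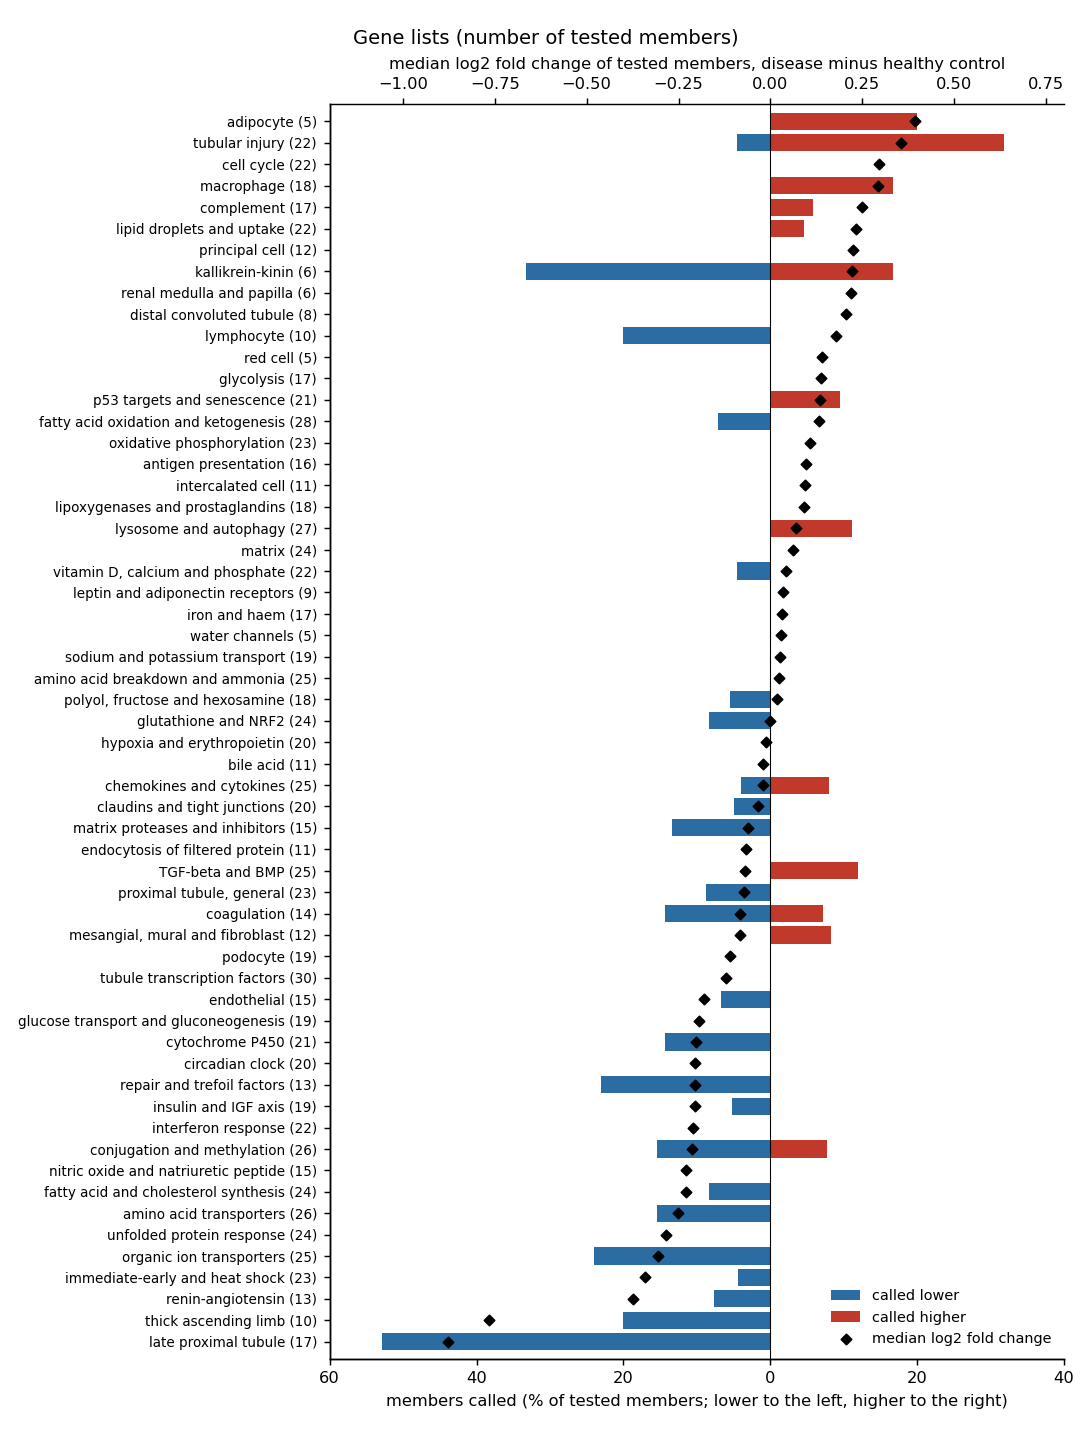
Gene lists with at least 5 tested members (number in brackets), sorted by their median log2 fold change of disease minus healthy control (diamonds, upper axis); bars give the share of tested members called lower (left) and higher (right) as a percentage (lower axis). The late proximal tubule, with 9 of 17 lower and a median of -0.88, stands at the bottom, and 28 of all 61 lists held no call, where 1.61% of all tested genes were called.

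The 250 bases before the start of 4 called genes, shown from among those that hold GTTAAT, are given from RefSeq (GRCr8). They run 5′ to 3′ on the gene's strand. Kap and Gc fell, and Havcr1 and Spp1 rose. Capitals mark GTTAAT, 1 arm of the palindrome bound by the tubule transcription factor HNF1, which these 4 carry and most called genes do not.
Kap, chr4:168409033-168409282, minus strand: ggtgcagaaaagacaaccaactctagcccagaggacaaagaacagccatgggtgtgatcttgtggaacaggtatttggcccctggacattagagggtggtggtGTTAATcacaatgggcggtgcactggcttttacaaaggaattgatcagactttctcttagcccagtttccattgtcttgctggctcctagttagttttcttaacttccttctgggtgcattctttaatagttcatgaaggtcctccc
Gc, chr14:18916005-18916254, plus strand: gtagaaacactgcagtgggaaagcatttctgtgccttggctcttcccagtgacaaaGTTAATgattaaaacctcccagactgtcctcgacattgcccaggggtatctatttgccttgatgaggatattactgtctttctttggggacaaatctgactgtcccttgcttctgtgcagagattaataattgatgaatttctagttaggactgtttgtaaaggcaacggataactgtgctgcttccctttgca
Havcr1, chr10:31629528-31629777, plus strand: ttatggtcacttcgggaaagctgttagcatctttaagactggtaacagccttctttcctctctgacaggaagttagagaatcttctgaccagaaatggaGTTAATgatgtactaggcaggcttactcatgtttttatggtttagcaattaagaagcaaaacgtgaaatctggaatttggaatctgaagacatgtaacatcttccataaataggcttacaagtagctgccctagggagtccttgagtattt
Spp1, chr14:5619805-5620054, minus strand: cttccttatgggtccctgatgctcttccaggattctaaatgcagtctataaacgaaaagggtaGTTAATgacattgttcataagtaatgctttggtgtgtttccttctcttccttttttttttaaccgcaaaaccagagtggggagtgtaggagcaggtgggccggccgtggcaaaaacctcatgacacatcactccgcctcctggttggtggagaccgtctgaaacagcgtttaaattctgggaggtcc
On either strand, GTTAAT stood in the window of 12 of the 94 genes called lower that had a promoter in the table (12.8%), of 4 of 45 called higher (8.89%) and of 369 of 8780 tested genes (4.2%). The full HNF1 palindrome stood in 0 of the 8780, and so did the direct repeat bound by HNF4 and PPAR-RXR, both searched with no mismatch. The AP-1 core TGANTCA stood in 11.7%, 11.1% and 4.45% of them. The antioxidant response core TGACNNNGC stood in 8.51%, 6.67% and 12.5%, and the E-box CACGTG in 8.51%, 11.1% and 8.14%. The windows also differed in base composition, with a median GC content of 52.2% in genes called lower, 55.2% in those called higher and 60% in all, and the part of this difference in the motif shares was not tested. A match is no evidence that a factor binds there.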

How the data were processed

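RNA-seq was run on cortical sections of rat kidney in 18 libraries, grouped by their titles. The deposited signal per gene is a read count that the authors divided by 1 size factor per library, per the file headers and the submitters' processing notes, which name FastQC 0.11.2, MultiQC 0.9, HTSeq 0.6.1p1, DESeq2 and the genome build Rnor 5.0. The sources used here do not name the aligner, the annotation release or the version of DESeq2. Undoing the size factors gave whole reads (within 0.01 reads) for 99.9942% or more of the values in every library. Of 18423 rows, 3 name no gene (reads outside genes were 30.02 to 43.17% of the counted reads in the 12 libraries) and were left out. Every pair of libraries within a group differed beyond sampling noise (chi-square divided by its degrees of freedom 22.54 or more). P-values measure only the spread between these libraries, which may be technical.

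On log2(value + 1), limma 3.58.1 under R 4.3.3 was fitted with its trend option and 1 mean for each of 3 groups to the 18 libraries, which left 15 residual degrees of freedom, and tested two-sided, with Benjamini-Hochberg adjustment over 13988 genes. Fold changes on this scale understate those of low genes. Alternatives were edgeR 4.0.16 and DESeq2 1.42.0 on recovered reads, scaling, pseudocount (0.5 and 5), filters (none and a minimum of 50), covariates, library weights, the 12 libraries alone, a replicate block and leaving out each library. On simulated counts for this comparison (13988 genes) limma recovered 29.9, 76.1 and 100% of genes changed 1.5-, 2- and 4-fold, with 4.9% of its calls false. These counts were drawn independently for each library, with no pairing and no library between the groups. The changed genes also left out those of lowest level. The rates therefore need not hold for the real libraries. Same-numbered disease and healthy control libraries deviated together (Pearson r 0.131 to 0.325 over 6 pairs). Only 2 of 6 healthy control and 3 of 6 disease libraries correlated best with their own number. The main fit, which gave the 225 calls, had no term for the numbers. Pairing by number entered only the replicate block, an alternative, which over 18 libraries kept 152 of the 225. The pairing comes from the data, since no label ties the numbers to a litter, batch or day.

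The groups, the 61 gene lists (947 of 1196 listed symbols were tested) and the rules were chosen with earlier results of these data known. The rule named 15 genes at either end of the fold changes, among called, non-overlapping genes with a symbol and a group mean of at least 100, the 10 lowest adjusted p, the 10 highest means, up to 3 called members of each list, 2 of the highest members of a list with no call, the first 3 markers of each cell type and Lepr. Not every gene of the rule is reported here, and 15 called genes have an Ensembl identifier only. Genes of multigene families (Slco, Slc22, Cyp2c, Klk1c, Ugt2b, Sult1) are uncertain where reads fit several copies. Promoters came from a RefSeq table of GRCr8. No gene coordinates are given in the files' build.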

Additional observations from a re-analysis of the deposited data

Results flagged for a closer look

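The 79 genes followed were searched, in each group of 6, for a library whose gap to the nearest other was large against the range of its group. Gaps were taken on normalised counts and not on the log2 scale of the test, where a single high library stands out less. The search covered 158 pairs of a gene and a group and gave 24. A chance rate of about 1 in 20 holds for normally distributed values, which read counts need not follow. No excess over chance is therefore read from the 24. Of the 24, 7 were disease replicate 5 and 6 healthy control replicate 4, the libraries that lay between the groups.

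Disease replicate 5 was the highest disease library, apart from the others, in 7 genes that fell. It had 13672 in Kap (the others 2094 to 6008), 2340.1 in Slco1a6 (143 to 957) and 667 in Tff3 (29.9 to 180.3). It had 3940.2 in Slc22a2 (2143 to 2745), 1059 in Rgn (558 to 650.3), 84.8 in Acox2 (37.4 to 53.2) and 12.3 in Anxa13 (3.51 to 6.79).

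Healthy control replicate 4 lay on the disease side of its group in each of its 6 genes. It was high in Clec10a (98.1, the others 64.2 to 69.8), Krt8 (7305, 2874 to 4528), Sult1a1 (2137, 750.4 to 963) and Kng1 (211, 66.4 to 88.7). It was low in Igf1 (110.4, 394 to 529) and Mgam (2379, 3983 to 4815).

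Healthy control replicate 3 lay on the far side, above the other controls in genes that fell: Cacng5 (375, the others 66.2 to 181), Slco1a6 (8359, 3275 to 5120.4), Slc22a2 (10672, 5497 to 7349) and Acox2 (178, 90.8 to 121). Healthy control replicate 1 was high in Trem2 (10.96, 7.36 to 8.22), S100a8 (13.1, 0 to 3.59) and Nphs1 (5846, 2508 to 3712). Disease replicate 2 was high in S100a8 (144, 16.97 to 29.3) and S100a9 (213, 39.0 to 89.7). Disease replicate 1 was high in Topaz1 (389, 257 to 290.2) and disease replicate 4 in Nags (103, 44.1 to 63.9).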

How the results depend on the processing

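No called gene changed sign in any of the 27 alternatives. Of 2122 values of the 79 genes followed, 1924 kept their direction and their side of the threshold and 189 lost a call. Nphs1, which was not called, turned from -0.11 to 0.108 with library weights and to 0.054 without healthy control replicate 1, over a range of -0.19 to 0.054 when 1 library was left out. Lepr was called with library weights (-0.95, adjusted p = 0.0255). Leaving out 1 library gave 126 to 312 calls, 41 to 127 higher and 83 to 189 lower. The count was 410 in DESeq2 (181 higher, 229 lower), 461 with library weights (186 and 275) and 143 at a minimum value of 50 (47 higher), where 11979 genes were tested. With the 12 libraries alone 180 genes were called (52 higher, 128 lower), and 159 of them were among the 225. After quantile normalization there were 286 (125 higher, 161 lower). The cause of these shifts was not tested. With the replicate block 158 genes were called (58 higher, 100 lower), 152 of them among the 225, and 252 with the block and the 12 libraries alone. Among these 79 genes, the block over 18 libraries changed no call other than those given beside their values. Of 1026 list counts under the alternatives, 248 moved by more than 1.5 times, mostly counts of 1 to 3. Depth limits what low genes can show: S100a8, S100a9, Trem2, Gzma, Prf1, Areg, Slc22a7, Sult1c3, Klk1c10 and Scart1 were not tested at a minimum of 50.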

Other observations

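Several groups not described above held no call, where 1.61% of all tested genes were called. Of 20 circadian clock genes 0 were called (median -0.20), and of 20 hypoxia genes (-0.01), 17 iron and haem genes (0.03), 19 sodium and potassium transport genes (0.03), 30 tubule transcription factors (-0.12) and 11 bile acid genes (-0.02) also 0. Without healthy control replicate 4, 1 tubule transcription factor was lower. In the list of 28 genes of fatty acid oxidation 22 were above 0 and 2 fell, Acox2 among them (0 to 2 when 1 library was left out); without healthy control replicate 4, 2 were also called higher. Of 24 genes of fatty acid and cholesterol synthesis 21 were below 0 and 2 fell, Me1 among them (1 to 4 when 1 library was left out); without healthy control replicate 4 it was 4 (median -0.41, and -0.23 with it).

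Which library stood nearest the other group differed by direction. In 78 of the 144 genes called lower, disease replicate 5 was the disease library nearest healthy control, and in 84 of them healthy control replicate 3 was the farthest from disease. In the 81 genes called higher, healthy control replicate 4 was the control nearest disease in 35. The disease library nearest control was replicate 6 in 26 of them, replicate 1 in 22 and replicate 4 in 19.

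Among the 10 lowest adjusted p were 2 genes with an Ensembl identifier only, which the files do not pair with a name.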
